A study of Homo sapiens with 4 samples.

Results

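The TGF-beta and activin genes examined here were 10 genes, chosen by symbol from the 23228 genes listed in the count tables. They comprised the TGF-beta ligands TGFB1, TGFB2 and TGFB3, the receptors TGFBR1 and TGFBR2, the activin subunit INHBA with its antagonist FST, the intracellular brakes SMAD7 and SKIL, and the TGF-beta-induced matrix protein TGFBI. ES2, an established human ovarian cancer cell line, was treated for 24 h with vehicle (2 samples) or with liquiritigenin (Liq, 2 samples), a plant flavanone that the study used as an ERβ agonist, at 100 μM per its methods. All samples were grown in phenol red-free medium with charcoal-treated serum, and total RNA was sequenced. ES2 is 1 cell line, and the labels do not say whether the samples of a group came from separate cultures. The p-values therefore measure the spread between these samples, which may be technical and which the test shares in part across genes.

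TGF-beta ligands are secreted in a latent form and, once released, bind TGFBR2, which recruits and phosphorylates TGFBR1. TGFBR1 then phosphorylates SMAD2 and SMAD3, which enter the nucleus with SMAD4 and switch genes on or off. Activin A, a dimer of the INHBA product, acts on its own receptors but through the same SMADs. It is known for its part in follicle growth in the ovary and in the control of follicle-stimulating hormone. SMAD7 and SKIL are themselves induced by the pathway and restrain it.

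Reads on genes ranged from 34573053 to 48933893 per sample, and 13546 genes passed the filter on low counts, all 10 of these genes among them. Levels are given as CPM, the counts scaled to library size after TMM normalization, and 3 counts corresponded to between 0.0598 and 0.0844 CPM. A gene passed the test at a Benjamini-Hochberg adjusted p under 0.05 by edgeR's quasi-likelihood test. It was called changed where, besides, its fold change was at least 1.5. Among tested genes 24.0% passed (12.6% higher and 11.3% lower with Liq) and 6.45% were called (4.29% higher and 2.16% lower). The share of calls that were upward was 66.5%, and it was 48.8% when loess offsets replaced TMM. The mesenchymal filament vimentin, VIM, had at least 230451 counts per sample. Of the epithelial markers, the keratins KRT7, KRT18 and KRT8 had at least 8909, 5996 and 871 counts per sample. KRT19 and EPCAM had at most 3, and E-cadherin, CDH1, had 0 in every sample. Some markers moved with treatment: KRT7 was 1.42 times higher with Liq and VIM 1.21 times lower (edgeR adjusted p = 1.081e-05 and 0.0003409). Others of the same kinds went the other way. KRT18 was 1.18 times lower and the mesenchymal cadherin CDH2 1.17 times higher (edgeR adjusted p = 0.01322 and 0.02645). KRT8 did not pass the test (edgeR adjusted p = 0.3181). The Müllerian and ovarian markers PAX8 and WT1 were called 2.54 and 1.60 times lower (edgeR adjusted p = 0.002137 and 0.002849), PAX8 from at most 49 counts. Their part in the changes of the 10 genes was not tested. Markers of other cell types were at most at 11 counts, except the endothelial cadherin CDH5, at 1712 to 2239 counts beside at most 10 for PECAM1. ESR2, which encodes ERβ, had between 4 and 14 counts per sample, and ESR1, which encodes ERα, between 17 and 34.

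Of the 10 genes, 6 were downregulated at an adjusted p under 0.05, none was upregulated, and 4 did not pass the test. Among all tested genes 11.3% were lower and 12.6% higher at that threshold. The 10 genes were chosen with earlier results of these data known, so setting them beside these shares is not a test of the set. The 6 were INHBA, TGFB1, TGFBI, SMAD7, SKIL and TGFBR2, in order of the size of the decrease. Only INHBA was also called at 1.5-fold. In 8 genes both Liq samples lay below both vehicle samples in CPM, against 30.2% of all tested genes, and in 1, TGFB3, they lay above, against 31.5%. The median log2 fold change was -0.33 over the 10 genes and 0.01 over all tested genes.

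**Figure D1:**
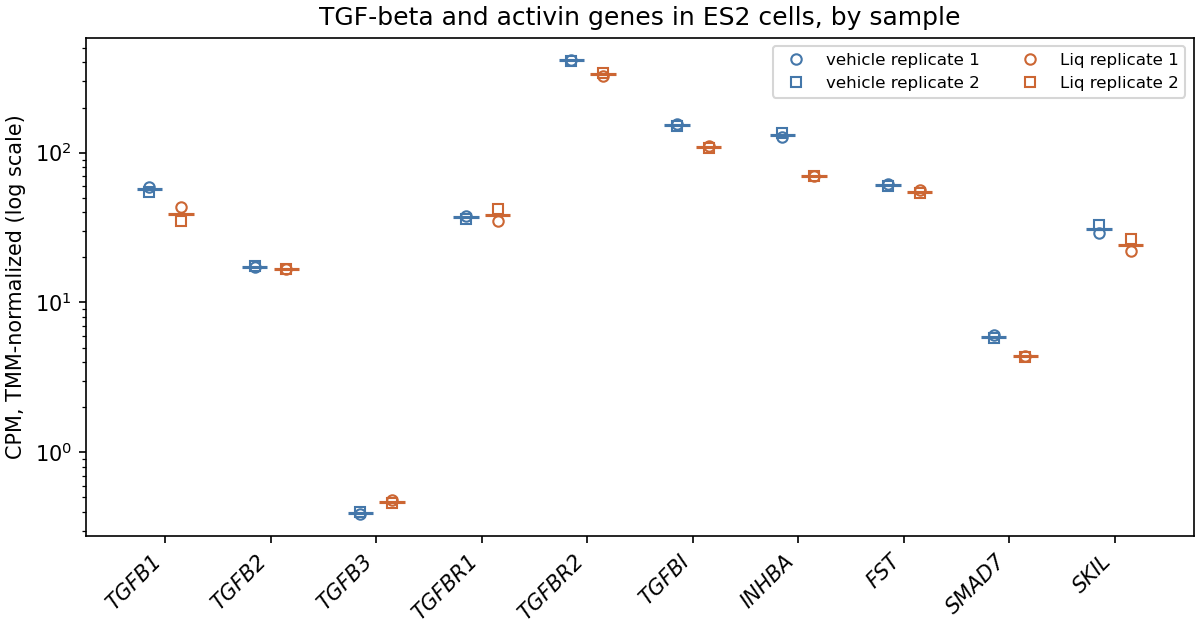
Level of each gene in every sample, in TMM-normalized CPM on a log axis, with vehicle in blue, Liq in orange, replicates as circles and squares, and the group mean as a bar. INHBA lies at 127.6 and 134.6 CPM in vehicle and at 69.8 and 69.9 CPM in Liq, while the TGFBR1 samples overlap.

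INHBA, which encodes the inhibin beta A subunit that dimerizes to activin A, had the largest decrease of the 10. It lies on chromosome 7 from 41706766 to 41745432 (minus strand, in GRCh37 like all coordinates here). INHBA was counted 5248 and 5040 times with vehicle and 2481 and 3506 times with Liq, the last of these in the deepest library. This was 131.1 ± 4.9 CPM with vehicle against 69.8 ± 0.1 CPM with Liq (SD, n = 2), so the Liq samples were nearly identical and far below both vehicle samples. The log2 fold change was -0.91 (edgeR SE 0.08 and adjusted p = 1.059e-09), a level 1.88 times lower. By p-value INHBA ranked at position 49 of the 13546 genes.

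FST encodes follistatin, the secreted protein that binds activin and keeps it from its receptors. FST (chromosome 5 from 52776456 to 52782964) had 2558 and 2252 counts in vehicle and 1996 and 2704 counts in Liq. Its level was 61.2 ± 1.5 CPM with vehicle against 55.0 ± 1.6 CPM with Liq (SD, n = 2). Both Liq samples lay below both vehicle samples, but the log2 fold change of -0.15 did not pass the test (SE 0.08, 95% interval -0.32 to 0.01, edgeR adjusted p = 0.1638). Per kilobase of exon, INHBA stood at 0.682 and 0.744 times the level of FST in the vehicle samples and at 0.413 and 0.431 times in the Liq samples. Within each Liq library there was less activin subunit RNA per follistatin RNA than in either vehicle sample.

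The sequences before the transcription starts of INHBA, FST and SMAD7 are shown because INHBA had the largest decrease, FST encodes its antagonist, and SMAD7 is a classical feedback gene of the pathway. They are taken from RefSeq (GRCh38.p14) and were located by exact match in GRCh37, without bases of any annotated exon, and read 5′ to 3′ toward the start. The INHBA start of RefSeq lies 2744 bases downstream of the first start annotated for the gene. For SMAD7 the window shown belongs to the first listed of 3 RefSeq starts. Capitals mark the motifs found.
INHBA, chr7:41742689-41742938, minus strand: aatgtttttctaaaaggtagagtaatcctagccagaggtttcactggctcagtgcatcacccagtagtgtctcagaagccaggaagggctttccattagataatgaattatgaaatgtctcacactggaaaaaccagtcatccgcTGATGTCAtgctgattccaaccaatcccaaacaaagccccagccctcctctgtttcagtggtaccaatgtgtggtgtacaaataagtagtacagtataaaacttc
FST, chr5:52776209-52776455, plus strand: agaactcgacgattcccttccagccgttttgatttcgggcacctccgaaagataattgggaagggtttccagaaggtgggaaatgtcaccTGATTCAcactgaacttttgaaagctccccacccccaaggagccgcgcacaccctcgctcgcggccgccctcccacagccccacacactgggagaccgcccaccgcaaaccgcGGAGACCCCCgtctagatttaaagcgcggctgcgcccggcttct
SMAD7, chr18:46477336-46477585, minus strand: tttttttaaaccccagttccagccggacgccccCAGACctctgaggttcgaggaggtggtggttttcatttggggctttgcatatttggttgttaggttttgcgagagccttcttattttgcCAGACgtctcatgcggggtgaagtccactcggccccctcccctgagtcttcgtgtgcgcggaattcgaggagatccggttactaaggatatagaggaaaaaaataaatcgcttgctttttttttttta

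All 10 genes matched the RefSeq table, with 21 starts in all, and the 250 bases before each start were searched on both strands and compared with the 34788 distinct windows of that length over all RefSeq starts. The INHBA window holds TGATGTCA from 105 to 98 bases before the start, a match to TGANGTCA, which 6.84% of all windows hold. TGANGTCA includes the cAMP response element TGACGTCA, found in 1.64% of all windows and, among these genes, in SKIL alone, from 54 to 47 bases before its start. For AP-1 the pattern TGANTCA was used, where N is any letter, and 6.59% of all windows hold it. Among these genes it was found only at FST, as TGATTCA from 160 to 154 bases before the start. A stricter AP-1 consensus was not searched for on its own, so the match does not establish an AP-1 site. The SMAD box CAGAC is common, in 38.0% of windows, and was found in 5 of the 10 genes. Among them was SMAD7, from 217 to 213 and from 128 to 124 bases before the start shown. Another SMAD box lay from 193 to 189 bases before the second of its RefSeq starts. The NF-κB consensus, in 5.21% of windows, matched at FST (the second run of capitals) and TGFBR1. Neither the SMAD palindrome GTCTAGAC nor the palindromic estrogen response element was found. Only 0.178% and 0.0402% of all windows hold these, so their absence from 21 windows carries little information. These 7 motifs were matched by letters alone, and genes with several starts had more windows to match in.

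TGFB1, the most abundant of the TGF-beta ligands in these cells, was downregulated. TGFB1 (chromosome 19 from 41807492 to 41859827, minus strand) had 2441 and 2055 counts in vehicle and 1540 and 1761 counts in Liq. Its level was 59.4 and 54.9 CPM in the vehicle samples and 43.3 and 35.1 CPM in the Liq samples, so the groups did not overlap although the Liq samples differed. The log2 fold change was -0.55 (edgeR SE 0.09 and adjusted p = 9.626e-05), or 1.46 times lower, just short of 1.5-fold. With 1 sample left out it was -0.60 without vehicle replicate 2 and -0.70 without Liq replicate 1, past 1.5-fold in both, but -0.49 without vehicle replicate 1 and -0.40 without Liq replicate 2, farther short of it. Of the TGFB1 exon bases, 215 overlap HNRNPUL1 on the other strand, and reads there cannot be told apart without strand. Transcripts that the count tables do not list overlap 3 other genes, TGFB2 (TGFB2-OT1 by 1371 exon bases on the same strand and TGFB2-AS1 by 701 on the other), INHBA (INHBA-AS1 by 248) and TGFB3 (TGFB3-AS1 by 163), so their reads may be counted to these genes.

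TGFB2 and TGFB3, the other ligands of the family, did not pass the test. TGFB2 (chromosome 1 from 218518678 to 218617961) had 711 and 654 counts in vehicle and 595 and 834 counts in Liq, or 17.4 ± 0.1 CPM and 16.7 ± 0.1 CPM (SD, n = 2). The Liq samples lay below the vehicle samples by a small margin, and the log2 fold change of -0.06 had a 95% interval of -0.26 to 0.14 (edgeR adjusted p = 0.7032). TGFB3 (chromosome 14 from 76424440 to 76449354, minus strand) was close to absent, with 16 and 15 counts in vehicle and 17 and 23 counts in Liq. Its log2 fold change of 0.24 had a 95% interval of -0.54 to 1.02 (edgeR adjusted p = 0.6926), so at this depth neither a rise nor a fall of moderate size was detectable. Per kilobase of exon, TGFB1 stood at 6.36 and 5.82 times the level of TGFB2 in the vehicle samples and at 4.80 and 3.91 times in the Liq samples.

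Of the receptor chains, TGFBR2 passed the test and TGFBR1 did not, and the difference between them was not tested. TGFBR2, which binds the ligand first, was the most abundant of the 10 genes, with 16970 and 15415 counts in vehicle and 11569 and 17051 counts in Liq. TGFBR2 (chromosome 3 from 30648093 to 30735634) fell from 412.3 ± 0.7 CPM with vehicle to 332.5 ± 10.2 with Liq (SD, n = 2), with no overlap of the groups. The log2 fold change was -0.31 (edgeR SE 0.06 and adjusted p = 0.0009335), or 1.24 times lower.

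TGFBR1, the kinase chain that TGFBR2 activates, did not pass the test. TGFBR1 (chromosome 9 from 101866320 to 101916474) had 1558 and 1360 counts in vehicle and 1249 and 2106 counts in Liq, or 37.9 and 36.3 CPM against 35.1 and 42.0 CPM. The Liq samples lay on either side of the vehicle samples, and the log2 fold change of 0.06 had a 95% interval of -0.13 to 0.25 (edgeR adjusted p = 0.6975). Without Liq replicate 2 it was -0.08, again not past the test. Per kilobase of exon, TGFBR2 stood at 12.7 and 13.2 times the level of TGFBR1 in the vehicle samples and at 10.8 and 9.44 times in the Liq samples.

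TGFBI, a secreted matrix protein named for its induction by TGF-beta, was downregulated. TGFBI (chromosome 5 from 135364677 to 135399507) had 6350 and 5624 counts in vehicle and 3954 and 5421 counts in Liq. Its level fell from 152.3 ± 3.0 CPM with vehicle to 109.6 ± 2.2 with Liq (SD, n = 2), with tight replicates in both groups. The log2 fold change was -0.48 (edgeR SE 0.07 and adjusted p = 2.270e-05), or 1.39 times lower.

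The feedback genes SMAD7 and SKIL fell by less than 1.5-fold, and their test was the least stable of the 6. SMAD7, the inhibitory SMAD that blocks the activated receptor and brings SMURF ubiquitin ligases to it, had only 249 and 217 counts in vehicle and 156 and 218 counts in Liq. SMAD7 (chromosome 18 from 46446223 to 46477335, minus strand) was at 5.93 ± 0.18 CPM with vehicle against 4.37 ± 0.03 CPM with Liq (SD, n = 2), and its log2 fold change was -0.44 (edgeR SE 0.14 and adjusted p = 0.01995). Its adjusted p was 0.171 without vehicle replicate 1, 0.07976 without vehicle replicate 2 and 0.1084 in the DESeq2 Wald test, with a decrease in each, and ranged from 0.004536 to 0.171 over 11 alternatives.

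SKIL encodes SnoN, a corepressor that holds SMAD complexes inactive on DNA. SKIL (chromosome 3 from 170075130 to 170114623) had 1200 and 1239 counts in vehicle and 785 and 1332 counts in Liq. Its level was 29.2 and 33.1 CPM in the vehicle samples and 22.1 and 26.5 CPM in the Liq samples, so the replicates of both groups were spread and a narrow gap parted the groups. The log2 fold change was -0.35 (edgeR SE 0.10 and adjusted p = 0.01204). The adjusted p was 0.2314 without vehicle replicate 2 and 0.07831 without Liq replicate 1, with log2 fold changes of -0.26 and -0.23, and ranged from 4.783e-05 to 0.2314 over the 11 alternatives.

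**Figure D2:**
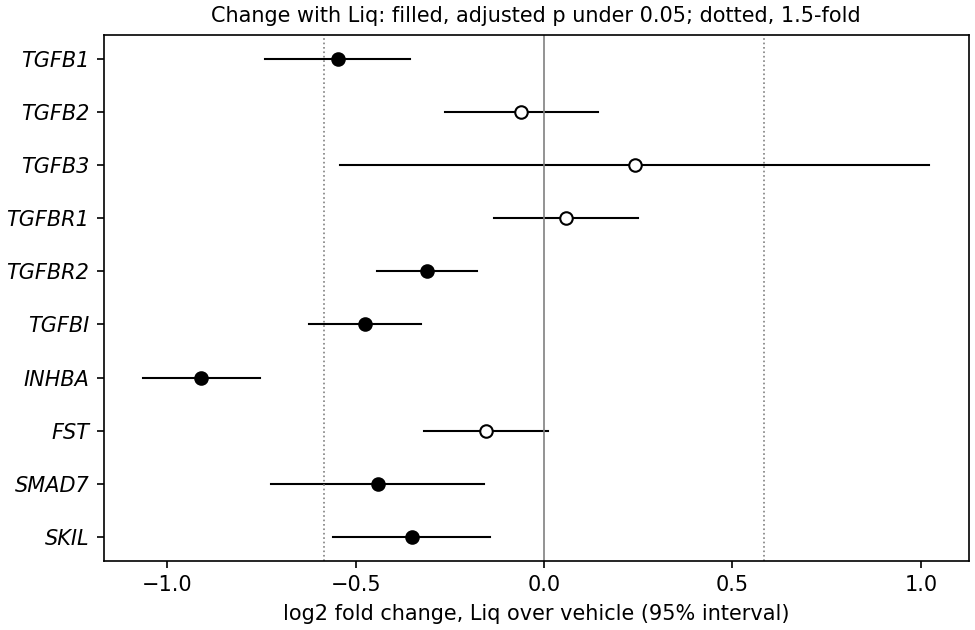
Log2 fold change of each gene (Liq over vehicle) with its 95% interval from edgeR, filled where the adjusted p was under 0.05, with dotted lines at 1.5-fold. INHBA at -0.91 lies wholly beyond the 1.5-fold line, and the interval of TGFB3 is the widest, from -0.54 to 1.02.

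Levels of different genes can be compared only per length, and the order of the 10 genes in CPM per kilobase of exon was nearly the same in all 4 samples. In vehicle, TGFBR2 stood at 60.2 ± 0.1 CPM per kilobase (SD, n = 2), ahead of FST at 22.2 ± 0.5, TGFBI at 19.7 ± 0.4, TGFB1 at 17.5 ± 1.0 and INHBA at 15.8 ± 0.6. TGFBR1 (4.64 ± 0.14 CPM per kilobase), SKIL (3.84 ± 0.34), TGFB2 (2.87 ± 0.02) and SMAD7 (1.54 and 1.47 in the vehicle samples) followed, and TGFB3 was lowest at 0.0756 ± 0.0016. In Liq, SKIL (2.72 and 3.27 CPM per kilobase) and TGFB2 (2.77 and 2.75) could not be ordered, since the SKIL samples lay on either side. TGFB1 and INHBA were adjacent in vehicle and farther apart in Liq, at 12.0 ± 1.8 and 8.43 ± 0.01 CPM per kilobase. With the longest transcript in place of all exons, TGFBI came ahead of FST in every sample, and the vehicle means of INHBA and TGFB1 changed places at 21.7 and 20.6 CPM per kilobase, with 1 vehicle sample in each order, so the order of these 4 depends on the length used.

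Other genes of the pathway were taken from 6 lists written from general knowledge, with earlier results of these data known. The lists held 74 genes in all, of which 60 were tested. Of the 60, 13 were higher and 16 lower with Liq at an adjusted p under 0.05, and 2 were called upward and 8 downward. Beside these counts and those of each list below, 12.6% of all tested genes were higher and 11.3% lower. Of all tested genes, 4.29% were called upward and 2.16% downward. The median log2 fold change of the 60 was -0.06, beside 0.01 for all tested genes, and 7 of the 10 calls were among the genes widely used as TGF-beta response genes.

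Among the other ligands, 3 of 7 were tested and none passed. GDF11, an activin-like ligand, was at 29.9 ± 0.7 CPM with vehicle against 33.8 ± 1.1 CPM with Liq (SD, n = 2; edgeR adjusted p = 0.1503). INHBE, another inhibin beta subunit, was at 0.611 ± 0.004 CPM and 0.79 ± 0.20 CPM (SD, n = 2; edgeR adjusted p = 0.3758). INHA, whose product pairs with that of INHBA to make inhibin, had between 11 and 15 counts per sample and did not pass (edgeR adjusted p = 0.9494). It was chosen for this pairing after its values had been seen.

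Genes of ligand latency and activation moved both ways, with 3 higher and 2 lower of the 10 tested. THBS1, the matrix protein thrombospondin 1, which can release TGF-beta from its latent complex, had 5627 and 5337 counts in vehicle and 3148 and 4691 counts in Liq. It fell from 139.7 ± 4.0 CPM with vehicle to 91.0 ± 3.5 with Liq (SD, n = 2), and the log2 fold change was -0.62 (edgeR SE 0.07 and adjusted p = 6.819e-07). That was close to the 1.5-fold line, and it was -0.56 with loess offsets and -0.58 without Liq replicate 1, short of the line in both. Among the latent TGF-beta binding proteins, LTBP3 rose from 200.4 ± 3.3 CPM with vehicle to 236.8 ± 28.5 with Liq (SD, n = 2; edgeR adjusted p = 0.02200). LTBP2 was at 289.4 ± 7.1 CPM and 270.9 ± 14.5 CPM (SD, n = 2; edgeR adjusted p = 0.3282). The other genes of this list past the test were named after their values had been seen. LTBP4 and FBN1 were 1.335 and 1.41 times higher with Liq (edgeR adjusted p = 0.0009993 and 2.228e-05). ITGB8 was 1.29 times lower (edgeR adjusted p = 0.007023).

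Of the 7 other receptors tested, 2 were higher and 1 lower. ACVR1C, the activin receptor-like kinase ALK7, was called upward from few counts, 32 and 35 in vehicle and 48 and 73 in Liq. Its log2 fold change was 0.72 (edgeR SE 0.25 and adjusted p = 0.04065), and it did not pass the test when any 1 sample was left out (adjusted p from 0.05234 to 0.3226), with loess offsets (0.1455) or in DESeq2 (0.2466). ENG, the TGF-beta co-receptor endoglin, fell from 301.0 ± 16.6 CPM with vehicle to 240.4 ± 25.4 with Liq (SD, n = 2; edgeR adjusted p = 0.002178). ACVR1, a type I receptor for activins and BMPs, was at 40.3 ± 1.1 CPM and 42.2 ± 0.8 CPM (SD, n = 2; edgeR adjusted p = 0.6087). The other receptor that was higher, the activin receptor ACVR2A, was named after its values had been seen. It had 251 and 243 counts in vehicle and 300 and 412 counts in Liq, a rise of 1.32 times (edgeR adjusted p = 0.01855).

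Of the 6 SMADs and partners tested, 1 was higher and 1 lower, both under 1.5-fold. SMAD3, the main carrier of the signal together with SMAD2, rose from 453.0 ± 1.9 CPM with vehicle to 558.5 ± 26.6 with Liq (SD, n = 2), and the log2 fold change was 0.30 (edgeR SE 0.06 and adjusted p = 0.001031). EP300, a histone acetyltransferase that SMADs recruit, fell from 92.8 ± 2.2 CPM with vehicle to 78.6 ± 0.9 with Liq (SD, n = 2; edgeR adjusted p = 0.02223).

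Of the 12 other inhibitors and feedback genes tested, 3 were lower and 1 was higher. PMEPA1, a TGF-beta-induced membrane protein that sequesters SMAD2 and SMAD3, had 867 and 706 counts in vehicle and 466 and 668 counts in Liq. This was 21.1 and 18.9 CPM against 13.1 and 13.3 CPM. Its log2 fold change was -0.60 (edgeR SE 0.10 and adjusted p = 0.0001005), and was short of 1.5-fold with upper-quartile normalization (-0.57) and without vehicle replicate 1 (-0.51). The ubiquitin ligases SMURF2 and NEDD4L, which act on SMADs and the receptor, fell by 0.20 and 0.29 on the log2 scale (edgeR adjusted p = 0.02097 and 0.006185). The gene that was higher was BAMBI, a kinase-lacking decoy receptor that is itself induced by the pathway, named after its values had been seen. BAMBI had 276 and 216 counts in vehicle and 328 and 474 counts in Liq, a rise of 1.49 times that was just short of 1.5-fold (log2 fold change 0.58, edgeR adjusted p = 0.001183).

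Of the 22 response genes tested, 9 were lower and 6 higher, and 6 were called downward and 1 upward. Among them, IL11, a cytokine of the interleukin 6 family, fell by 1.49 on the log2 scale and CTGF, the matricellular connective tissue growth factor, by 1.22 (edgeR adjusted p = 5.333e-12 and 1.169e-14). CTGF had 80350 and 73583 counts in vehicle and 29969 and 42347 counts in Liq, or 1960 ± 8 CPM and 843.2 ± 0.7 CPM (SD, n = 2). The cell cycle inhibitor CDKN1A and the transcriptional repressor BHLHE40 each fell by 1.08 on the log2 scale (edgeR adjusted p = 1.999e-08 and 3.114e-09). The sphingosine kinase SPHK1 fell by 0.89 and the AP-1 subunit JUNB by 0.86 on the log2 scale (edgeR adjusted p = 3.738e-09 and 7.717e-07). The gene called upward, ACTA2, smooth muscle actin, rose from 3.42 ± 0.46 CPM with vehicle to 6.18 ± 0.19 with Liq (SD, n = 2; edgeR adjusted p = 0.0001108) and was named after its values had been seen.

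**Figure D3:**
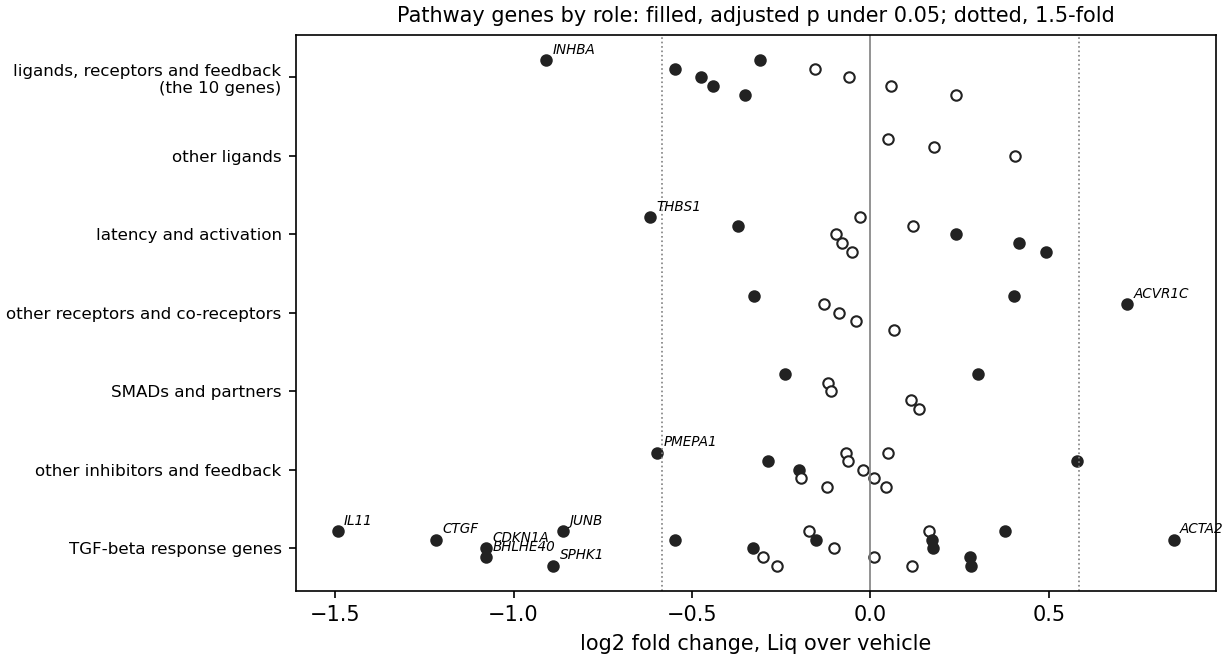
Log2 fold change (Liq over vehicle) of the 10 genes and of the 60 tested genes of the 6 other lists, 1 point per gene, filled where the adjusted p was under 0.05, with called genes named and dotted lines at 1.5-fold. The response genes spread most widely, from -1.49 for IL11 to 0.85 for ACTA2.

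**Figure D4:**
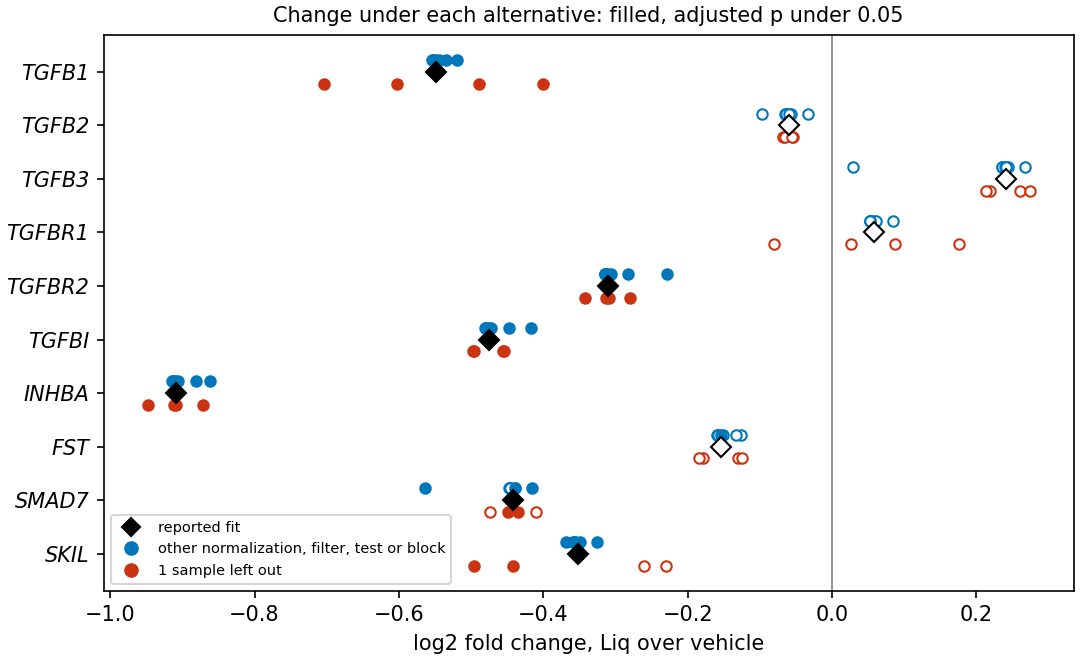
Log2 fold change of each of the 10 genes in the reported fit (black diamonds), under other normalizations, filters, tests and the block (blue), and with 1 sample left out (red), filled where the adjusted p was under 0.05. INHBA stays between -0.95 and -0.86 and filled throughout, and SMAD7 and SKIL have open points.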

How the data were processed

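The authors prepared TruSeq libraries and sequenced them as single-end reads. Per the labels, reads were processed with bcl2fastq 2.17.1.14, aligned to hg19 (GRCh37) with TopHat2 2.0.8b and counted per gene symbol with HTSeq, whose strand setting is not given in the sources used here. The deposited values are raw counts, 1 table per sample. The 5 closing tallies were left out of library sizes and tests. Reads on genes were 54.06% to 55.62% of all those tallied, and 35.63% to 36.23% were left out for aligning to more than 1 place.

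Here edgeR 4.0.16 under R 4.3.3 compared Liq with vehicle (filterByExpr at 10 counts and a total of 15, TMM, glmQLFit and glmQLFTest, no block), and p-values were adjusted over all 13546 tested genes. The SE is the log2 fold change divided by the square root of F. The study's 1.5-fold threshold was kept. An exact permutation test of 2 samples against 2 cannot give a p below 0.3333. Intervals and the floor of 3 counts cover counting error and the spread of these samples only. edgeR shares that spread in part across genes, so a gene's SE, interval and p-value do not rest on its own counts alone. Lengths and coordinates are from GENCODE on GRCh37. The fits were tested on simulated data.

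The 10 genes and the 6 lists were chosen with earlier results of these data known. In each list the called genes were named, up to the 6 with the smallest p, and with fewer than 2 calls also the 2 with the highest mean CPM. LDLRAD4 was read under C18orf1. Alternatives were other normalizations (DESeq2's size factors, upper quartile, loess offsets with a span of 0.3), no filter, at least 10 counts in every sample, DESeq2 1.42.0, the replicate block, leaving out each sample, and other thresholds.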

Additional observations from a re-analysis of the deposited data

How the results depend on the processing

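Of the 6 genes past the test, INHBA, TGFB1, TGFBI and TGFBR2 passed under each of 11 alternatives and SMAD7 and SKIL under 8 and 9, with a decrease throughout. SMAD7 did not pass in DESeq2 (-0.45, adjusted p = 0.1084). With 1 sample left out, where a lone sample is assumed to vary like the other group, the log2 fold change ranged from -0.47 to -0.41 for SMAD7 and from -0.50 to -0.23 for SKIL. The replicate block changed the test outcome of 1 of the 10 genes, FST, which passed under it (-0.15, adjusted p = 0.03897, against up to 0.6125 in the other alternatives). The labels do not say what samples sharing a number have in common (correlation of their deviations 0.1288 over genes). Under the block 2321 genes were higher and 2474 lower at an adjusted p under 0.05, against 1712 and 1533 without it. At 1.5-fold the block gave 898 called genes against 874. Whether the samples were paired was not tested.

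The number of the 10 genes called was 1 to 2 with 1 sample left out, 6 with no fold threshold and 0 at 2-fold, and 1 in the other settings. In the same order (1 sample left out, no fold threshold, 2-fold), the lists gave 0 to 1, 5 and 0 for latency and activation, 0 to 0, 3 and 0 for other receptors, 1 to 2, 4 and 0 for inhibitors, 7 to 8, 15 and 4 for response genes, and 659 to 979, 3245 and 328 for all genes. With no fold threshold 2 SMADs and partners passed. Loess offsets gave 0 calls in latency and activation and 0 in other receptors. DESeq2 gave 0 in other receptors and 567 over all genes. Counts limit TGFB3 and SMAD7 most.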
